A study of Homo sapiens with 24 samples.

Results

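Cytosolic ribosomal protein genes were taken by symbol from the array's probe table: RPL or RPS followed by a number, with an optional A, X, L or Y at the end, together with the stalk genes RPLP0, RPLP1 and RPLP2 and with RPSA. Kinases of the RPS6K family and pseudogenes were left out. The rule found 78 genes, 50 of the large and 28 of the small subunit, among 20046 genes of the table. Of these, 76 (48 large-subunit and 28 small-subunit genes) were bright enough to be tested beside 10187 genes in all. RPL10 and RPL3L were not above background on any array. RPS4Y1 and RPS4Y2 are in every count unless it is said otherwise, and are not described further.

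The study measured messenger RNA on 24 Illumina bead arrays in 2 established lines of diffuse large B cell lymphoma, an aggressive tumour of mature B cells. OCI-Ly7 is usually assigned to the germinal centre type of this lymphoma and U2932 to the activated B cell type. There were 3 arrays in each of 8 groups: U2932 cells treated with trabectedin for 8 h, U2932 cells kept in DMSO for 8 h, U2932 cells treated with trabectedin for 24 h, U2932 cells kept in DMSO for 24 h, and the same 4 groups of OCI-Ly7 cells. Trabectedin is an anticancer agent that attaches to DNA in its minor groove, and DMSO is the solvent. The labels used give no dose and do not say whether the 3 samples of a group came from separate cultures, so the p-values measure the spread between these samples, which may be technical. By the chip named in the labels, all U2932 arrays sat on slide 1, the OCI-Ly7 arrays of both DMSO groups and of trabectedin at 8 h on slide 2, and the OCI-Ly7 arrays of trabectedin at 24 h alone on slide 3. In OCI-Ly7 at 24 h slide and treatment therefore cannot be told apart, nor can line and slide.

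A ribosome has a large subunit, which joins amino acids, and a small subunit, which reads the messenger RNA, and each holds ribosomal RNA and 1 copy of most of its proteins. The genes of these proteins are among the most strongly transcribed in growing cells, and their messages usually begin with a C followed by a run of pyrimidines, the 5′ terminal oligopyrimidine (TOP) tract, through which mTOR signalling sets how much of them is translated. Several members have a second gene copy of restricted use, marked by an added L in the symbol, and free ribosomal proteins such as RPL5 and RPL11 bind MDM2, the ligase that degrades p53.

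The first bases of the transcripts show this start in most members and its absence in others. RefSeq promoter windows (build GRCh38.p14) held 65 of the 76 tested members, and 40 bases around the annotated start are printed 5′ to 3′ for 11 of them, with 20 bases before the start and 20 from it. Capitals mark the unbroken run of C and T from the first transcribed base. The first 5 lines are members whose change is small or whose role is often cited, the next 3 are members with larger changes, and the last 3 are paralogs.
RPS6 (chr9:19380217-19380256, minus strand): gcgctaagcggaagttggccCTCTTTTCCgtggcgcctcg
RPL13A (chr19:49487588-49487627, plus strand): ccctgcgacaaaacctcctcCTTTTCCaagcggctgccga
RPS19 (chr19:41860235-41860274, plus strand): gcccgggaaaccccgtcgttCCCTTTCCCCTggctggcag
RPS27 (chr1:153990742-153990781, plus strand): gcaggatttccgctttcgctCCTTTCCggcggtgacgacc
RPL22 (chr1:6199576-6199615, minus strand): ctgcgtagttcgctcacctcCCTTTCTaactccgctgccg
RPL36A (chrX:101390991-101391030, plus strand): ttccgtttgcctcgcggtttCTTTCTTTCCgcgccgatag
RPL28 (chr19:55385912-55385951, plus strand): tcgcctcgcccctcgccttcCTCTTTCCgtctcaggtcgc
RPS23 (chr5:82278335-82278374, minus strand): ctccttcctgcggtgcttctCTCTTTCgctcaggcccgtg
RPL22L1 (chr3:170870176-170870215, minus strand): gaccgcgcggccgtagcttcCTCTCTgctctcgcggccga
RPS27L (chr15:63157458-63157497, minus strand): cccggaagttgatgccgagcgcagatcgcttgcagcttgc
RPL26L1 (chr5:172958709-172958748, plus strand): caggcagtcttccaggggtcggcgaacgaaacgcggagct

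The run was 9 bases long in RPS6, 11 in RPS19, 10 in RPL36A and 6 in RPL22L1, and the paralogs RPS27L and RPL26L1 had none at the annotated start, while RPS27, the main gene beside RPS27L, had 7. A start of C followed by at least 4 pyrimidines, read on the transcribed strand only, was present in 44 of the 65 members (67.7%), in 629 of 8209 tested genes with a window (7.66%) and in 1429 of all 35116 windows (4.07%). The 21 members without it include main genes such as RPL3, RPL4, RPL19, RPS7 and RPS15, none of which is printed above. Its absence is therefore not a trait of paralogs alone, and the paralog RPL22L1 had it. A match describes the letters at the annotated start and not how the message is translated, which these arrays do not measure.

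Levels are normalised log2 probe intensities, and an array reads a level of RNA, so that fewer copies per cell and less RNA in all cannot be told apart. Each gene is represented by its brightest probe, and levels of different genes are not set against each other as amounts. The B cell markers CD79A, CD79B, MS4A1 and CD22 were above background on all 12 arrays of either line, and PAX5 on 0. The T cell markers CD3D, CD3E and CD2 and the myeloid marker CSF1R were above background on 0 arrays, LYZ on 1 array of each line, CD14 on 7 OCI-Ly7 and 12 U2932 arrays, and the plasma cell marker SDC1 on 12 OCI-Ly7 and 11 U2932 arrays. Mean array intensity before scaling was 460 ± 5.54 units in U2932 after 8 h of trabectedin and 539 ± 17.8 in DMSO, and 365 ± 21.6 after 24 h of trabectedin and 543 ± 11.8 in DMSO (SD, n = 3 each). In OCI-Ly7 it was 365 ± 53.7 after 8 h of trabectedin and 326 ± 19.5 in DMSO, and 235 ± 45.0 after 24 h of trabectedin and 366 ± 83.3 in DMSO (SD, n = 3 each).

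Ribosomal protein genes stayed at the bright end of the arrays in all 8 groups. Between 74 and 76 of the 76 were above background on each array. In U2932 the median member stood at log2 13.48 ± 0.03 after 8 h of trabectedin and 13.37 ± 0.01 in DMSO, and at 13.47 ± 0.02 after 24 h of trabectedin and 13.42 ± 0.03 in DMSO (SD, n = 3 each). In OCI-Ly7 it stood at 13.57 ± 0.08 after 8 h of trabectedin and 13.51 ± 0.04 in DMSO, and at 13.61 ± 0.04 after 24 h of trabectedin and 13.59 ± 0.06 in DMSO (SD, n = 3 each). Between 47 and 51 members averaged 13 or more in a group, where 137 to 154 of all tested genes did so.

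The share of all background-corrected signal that fell on the brightest probe of each member is not touched by scaling between arrays. Other probes of members are in the total alone, so this share is not that of all member probes. It was 5.39 ± 0.19% in U2932 after 8 h of trabectedin and 4.33 ± 0.09% in DMSO, and 6.43 ± 0.43% after 24 h of trabectedin and 4.40 ± 0.05% in DMSO (SD, n = 3 each). In OCI-Ly7 it was 5.51 ± 0.75% after 8 h of trabectedin and 5.28 ± 0.15% in DMSO, and 7.31 ± 0.80% after 24 h of trabectedin and 5.19 ± 1.15% in DMSO (SD, n = 3 each). Every trabectedin array lay above every DMSO array in 3 of the 4 pairs of groups, where an exact two-sided permutation test gave p = 0.1, the smallest that 3 arrays against 3 allow. In OCI-Ly7 at 8 h the arrays overlapped (exact permutation p = 0.7). In U2932 at both times and in OCI-Ly7 at 24 h the share was higher where mean array intensity, given above, was lower. The part of that fall in the share was not tested. In OCI-Ly7 at 8 h mean intensity did not fall (365 units after trabectedin and 326 in DMSO).

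**Figure D1:**
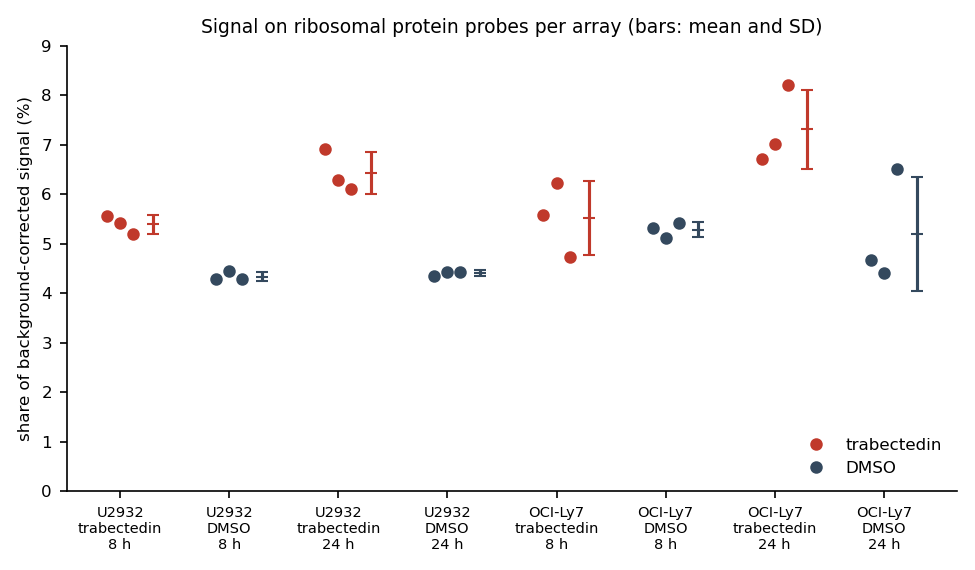
Share of each array's background-corrected signal on the brightest probe of each ribosomal protein member, in percent (vertical axis), in the 8 groups. Trabectedin is left of DMSO at each time. Points are arrays and bars are means ± SD (n = 3). The trabectedin arrays of U2932 at 24 h average 6.43% and their DMSO arrays 4.40%.

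A member was called higher or lower where limma gave a two-sided Benjamini-Hochberg adjusted p under 0.05 over all 10187 genes. In U2932 at 8 h, 24 members (31.6%) were called, 18 higher and 6 lower (23.7% and 7.89% of members), beside 76% of all genes, 36.7% higher and 39.3% lower. Without trabectedin replicate 2 or DMSO replicate 3 of that time the number called lower was 3. In U2932 at 24 h, 30 members (39.5%) were called, 20 higher and 10 lower (26.3% and 13.2%), beside 84.9% of all genes, 38.6% higher and 46.3% lower. The share of members called was below that of all genes in both comparisons.

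The OCI-Ly7 comparisons gave 17 called members (22.4%) at 8 h, 14 higher and 3 lower (18.4% and 3.95%), beside 52% of all genes, 24.4% higher and 27.6% lower. At 24 h they gave 19 (25%), 6 higher and 13 lower (7.89% and 17.1%), beside 53.8% of all genes, 26.5% higher and 27.3% lower. By subunit, large-subunit members were called higher and lower 14 and 5 times in U2932 at 8 h, 13 and 7 times at 24 h, 8 and 2 times in OCI-Ly7 at 8 h and 5 and 7 times at 24 h. Small-subunit members were called higher and lower 4 and 1 times, 7 and 3 times, 6 and 1 times, and 1 and 6 times in that order of comparisons. The median change of members was 0.03, 0.06, 0.05 and 0.00 on the log2 scale, beside 0.00, -0.10, 0.00 and 0.01 over all genes.

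On the brightest probe of each gene, changes of members were small compared with those of all genes. These probes are near the top of the range: between 1 and 16 members on an array stood above 80% of that array's highest intensity, and the part of this in the small changes was not tested. Dimmer probes of the same genes moved further in places, as in U2932 at 8 h, where a dim probe changed by 0.90 for RPL41, 2.29 for RPS29 and 1.16 for RPL32. Within 0.25 log2 units of no change lay 58, 53, 54 and 54 of the 76 members in U2932 at 8 h and 24 h and OCI-Ly7 at 8 h and 24 h (76.3%, 69.7%, 71.1% and 71.1%), beside 24.7%, 15.8%, 31% and 30% of all genes. Changes of 1 log2 unit or more were seen in 1, 5, 2 and 6 members (1.32%, 6.58%, 2.63% and 7.89%), beside 27.5%, 47%, 18.7% and 21.1% of all genes. At 24 h these members include RPL10L in both lines, which was not above background in DMSO. The shares called are also given by brightness, at the mean log2 intensity over all arrays. Among the 138 genes averaging 13 or more, 16%, 28%, 10% and 4% of the 50 members were called, against 22.7%, 45.5%, 15.9% and 31.8% of the 88 others. Between 10 and 13 the shares were 55%, 60%, 40% and 55% of 20 members, against 71.7%, 81.7%, 48.6% and 55.2% of 1325 others. The 6 members averaging under 10 were called in 83.3%, 66.7%, 66.7% and 100% of cases, against 77.5%, 86.2%, 53.2% and 54.1% of 8698 others.

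**Figure D2:**
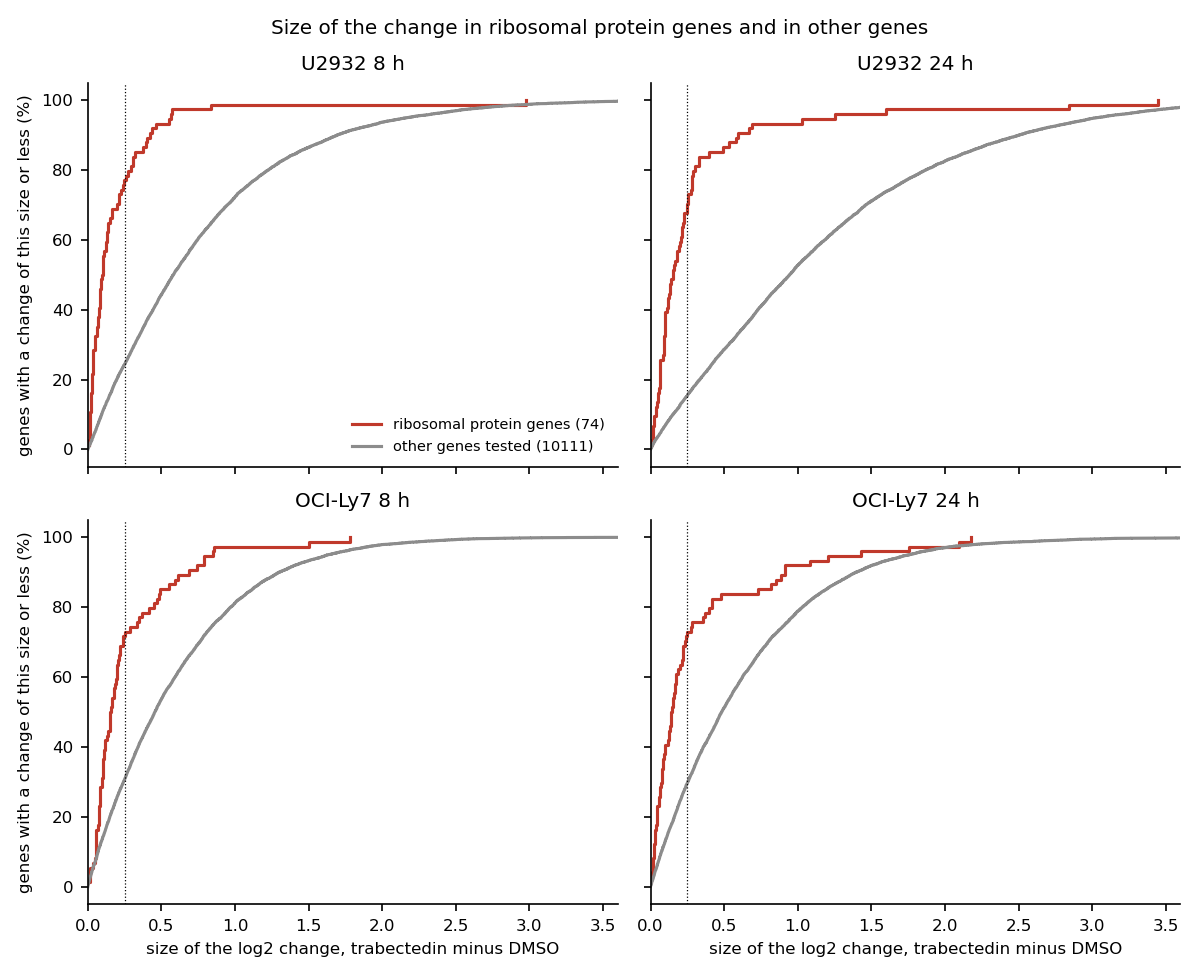
Cumulative percent of genes (vertical axis) whose absolute log2 change is at or below the value on the horizontal axis, in the 4 trabectedin comparisons, for 74 members (without the Y-linked ones) and 10111 other genes. The dotted line marks 0.25, within which 69.7% to 76.3% of all 76 members and 15.8% to 31% of all genes lay.

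The balance of rises and falls depended on the scaling between arrays. Quantile normalisation, used for the values above, gives each array the same distribution. With every array set to the same median instead, the median change of all genes was -0.44, -0.94, 0.05 and -0.42 in the 4 comparisons, and members stood above it by 0.64, 1.21, 0.30 and 0.51 log2 units. Members were then called higher and lower 34 and 5 times, 46 and 14 times, 19 and 2 times, and 10 and 16 times. Of all genes, 74.3%, 84.3%, 33.2% and 44.5% were then called in either direction. With no scaling the median of all genes was -0.60, -1.33, -0.01 and -0.92, and members again stood 0.64, 1.21, 0.30 and 0.51 above it. Members called higher and lower were then 8 and 7, 3 and 27, 3 and 0, and 1 and 22. Of all genes, 74.1%, 88.8%, 13.6% and 53.1% were called with no scaling. Of the called members 75%, 66.7%, 82.4% and 31.6% were higher with quantile normalisation, 87.2%, 76.7%, 90.5% and 38.5% with equal medians, and 53.3%, 10%, 100% and 4.35% with no scaling. With quantile normalisation members stood 0.03, 0.16, 0.05 and -0.01 from the median of all genes. With no scaling the OCI-Ly7 8 h calls given below for RPL22L1, RPL23A, RPL28, RPL29, RPL34, RPL36A, RPS4X, RPS7, RPS21 and RPS29 were lost. The changes themselves were then -0.84, 0.73, -0.96, 0.90, 0.78, 0.91, 0.74, 0.83, 0.80 and -0.20 in that order, smaller than with quantile normalisation for RPS29 alone among these 10.

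Across the 4 comparisons, 31 members were called in none, 18 in 1, 13 in 2, 10 in 3 and 4 in 4. RPL37 and RPL34 were called higher in all 4, and 9 members were called in both directions. Such patterns were not counted over all genes, of which 76%, 84.9%, 52% and 53.8% were called in the single comparisons. The pattern counts are therefore not read as a trait of members. The 31 uncalled members include RPL3, RPL4, RPL5, RPL6, RPL11, RPL19, RPL23, RPL24, RPL30, RPL39, RPL41, RPLP1, RPLP2, RPS2, RPS6, RPS14, RPS15, RPS16, RPS18, RPS19 and RPS27. Their changes ran between -0.13 and 0.23 in U2932 at 8 h, -0.22 and 0.18 at 24 h, -0.22 and 0.29 in OCI-Ly7 at 8 h, and -0.25 and 0.28 at 24 h. Their 95% confidence intervals reached at most from -0.41 to 0.45, -0.51 to 0.36, -0.48 to 0.56 and -0.55 to 0.53.

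**Figure D3:**
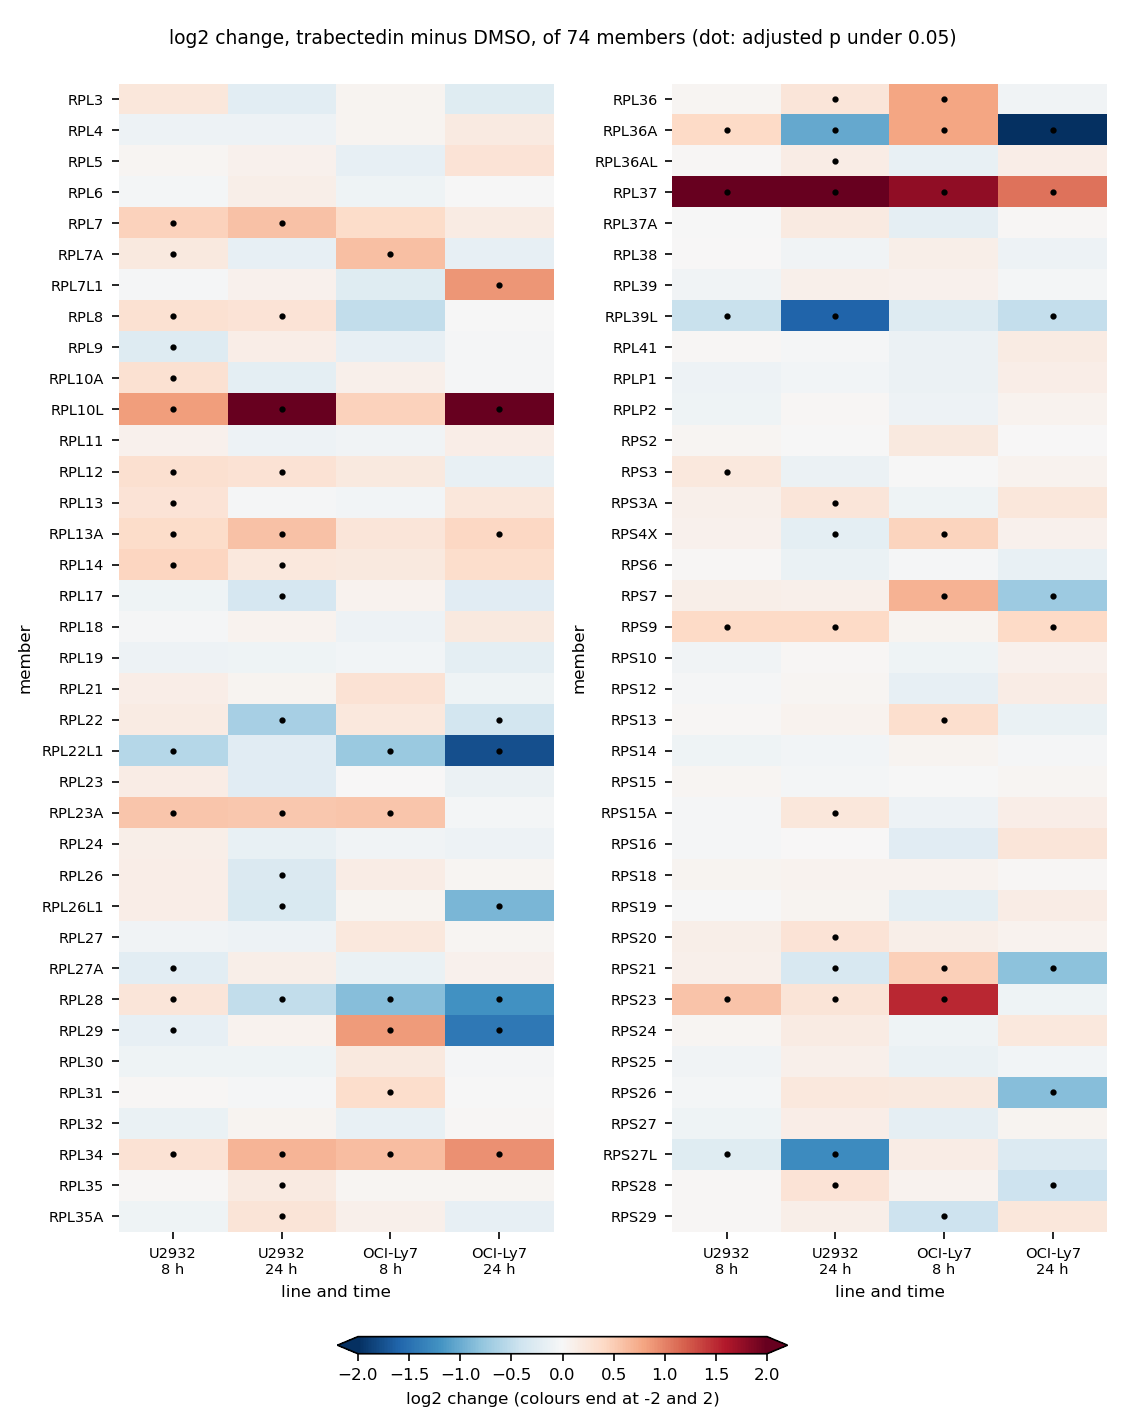
Log2 change after trabectedin against DMSO (colour, ending at -2 and 2) of 74 members in rows, in U2932 at 8 h and 24 h and OCI-Ly7 at 8 h and 24 h in columns. Dots mark members called at an adjusted p under 0.05. Most cells are pale, RPL37 is higher in all 4 columns, and RPL36A is higher at 8 h and lower at 24 h in both lines.

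RPL37, a small zinc-binding protein of the large subunit, had the largest rise of any member in 3 of the 4 comparisons. It read 9.37, 9.34 and 9.34 in U2932 after 8 h of trabectedin, against 6.74, 6.16 and 6.21 in DMSO, a log2 change of 2.98 ± 0.16 (SE, adjusted p = 3.02e-09). After 24 h of trabectedin it read 9.83, 9.85 and 10.08, against 6.80, 6.33 and 6.29 in DMSO (3.45 ± 0.16, adjusted p = 3.03e-10). All trabectedin arrays were far above all DMSO arrays at both times. In OCI-Ly7 it read 8.53, 9.13 and 8.81 after 8 h of trabectedin, against 7.30, 6.83 and 7.0 in DMSO (1.78 ± 0.20, adjusted p = 1.11e-05), and 7.95, 8.23 and 8.55 after 24 h, against 7.03, 7.43 and 7.02 in DMSO (1.09 ± 0.20, adjusted p = 0.000426). The groups were again apart, by less than in U2932. The OCI-Ly7 value at 24 h depended on the scaling: it was 0.29 (adjusted p = 0.399) with equal medians and -0.21 (adjusted p = 0.631) with no scaling. RPL37 was a dim member, which the array lists far below the typical one.

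RPL34, another large-subunit protein, was called higher in all 4 comparisons on its brighter probe. It read 11.24, 11.29 and 11.32 in U2932 after 8 h of trabectedin, against 11.13, 11.17 and 10.67 in DMSO (0.29 ± 0.12, adjusted p = 0.043), and 11.99, 11.82 and 12.01 after 24 h, against 11.41, 11.20 and 11.15 in DMSO (0.69 ± 0.12, adjusted p = 0.000151). In OCI-Ly7 it read 11.28, 11.36 and 11.21 after 8 h of trabectedin, against 10.72, 10.66 and 10.63 in DMSO (0.61 ± 0.15, adjusted p = 0.0034), and 11.64, 11.96 and 11.33 after 24 h, against 10.80, 10.67 and 10.72 in DMSO (0.91 ± 0.15, adjusted p = 0.000161). Trabectedin arrays lay above DMSO arrays throughout, by little in U2932 at 8 h, where the call was lost without U2932 DMSO 8 h replicate 3 (0.13, adjusted p = 0.208) and without each of the 3 trabectedin replicates (0.31, 0.29 and 0.28, with adjusted p of 0.0626, 0.0853 and 0.0974). With no scaling RPL34 turned to -0.03 at 8 h and -0.02 at 24 h in U2932 and to -0.19 at 24 h in OCI-Ly7. With equal medians it was 0.13 (adjusted p = 0.296) in U2932 at 8 h and 0.31 (adjusted p = 0.435) in OCI-Ly7 at 24 h. The mean of its probes gave -0.30 and -0.32 at 24 h in U2932 and OCI-Ly7.

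RPL36A, a large-subunit protein near the site where transfer RNA leaves, was called higher at 8 h and lower at 24 h in both lines. It read 10.78, 10.81 and 10.76 in U2932 after 8 h of trabectedin, against 10.43, 10.43 and 10.31 in DMSO (0.40 ± 0.07, adjusted p = 0.000155), and 9.75, 9.64 and 9.63 after 24 h, against 10.70, 10.80 and 10.62 in DMSO (-1.03 ± 0.07, adjusted p = 1.08e-08). In OCI-Ly7 it read 10.81, 11.11 and 10.97 after 8 h of trabectedin, against 10.05, 10.24 and 10.22 in DMSO (0.79 ± 0.17, adjusted p = 0.00164), and 8.56, 8.64 and 9.20 after 24 h, against 10.77, 11.08 and 11.07 in DMSO (-2.17 ± 0.17, adjusted p = 3.78e-07). No pair of groups overlapped. The rise in U2932 at 8 h was 0.13 (adjusted p = 0.152) with equal medians and -0.02 with no scaling.

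RPL28, a large-subunit protein with no counterpart in budding yeast, fell in 3 comparisons. It was a dim member, read from its only probe, which was above background on all 24 arrays. Before scaling that probe gave 120, 111 and 94.8 units in OCI-Ly7 after 24 h of trabectedin. In U2932 RPL28 read 6.84, 6.61 and 6.83 after 24 h of trabectedin, against 7.19, 7.28 and 7.28 in DMSO (-0.49 ± 0.09, adjusted p = 0.00016). In OCI-Ly7 it read 6.89, 6.53 and 6.75 after 8 h of trabectedin, against 7.62, 7.82 and 7.28 in DMSO (-0.85 ± 0.15, adjusted p = 0.000415), and 6.24, 6.18 and 6.41 after 24 h, against 7.56, 7.45 and 7.44 in DMSO (-1.21 ± 0.15, adjusted p = 2.02e-05). These groups did not overlap. In U2932 at 8 h it was called higher by 0.24 ± 0.09 (adjusted p = 0.0244), a call that turned to -0.59 with equal medians and -0.75 with no scaling. That call was lost without U2932 DMSO 8 h replicate 3 (0.15, adjusted p = 0.116), without trabectedin replicate 1 (0.23, adjusted p = 0.0571) and without trabectedin replicate 3 (0.24, adjusted p = 0.0511).

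RPL29, a heparin-binding protein of the large subunit, moved in opposite directions in OCI-Ly7. It read 10.41, 10.52 and 10.48 there after 8 h of trabectedin, against 9.45, 9.63 and 9.76 in DMSO (0.86 ± 0.15, adjusted p = 0.000315), and 8.94, 9.36 and 9.15 after 24 h, against 10.41, 10.80 and 10.53 in DMSO (-1.43 ± 0.15, adjusted p = 3.73e-06). Groups did not overlap at either time. The 8 h DMSO arrays were the low ones among the DMSO arrays of this line, and with no scaling the 8 h change was 0.90 (adjusted p = 0.122). In U2932 RPL29 changed by -0.17 ± 0.06 at 8 h (adjusted p = 0.0255) and 0.07 ± 0.06 at 24 h (adjusted p = 0.32). The U2932 value at 24 h turned to -0.43 with equal medians and -0.82 with no scaling. The 8 h call was lost without trabectedin replicate 2 (-0.13, adjusted p = 0.101), without DMSO replicate 1 (-0.16, adjusted p = 0.0536) and without DMSO replicate 3 (-0.16, adjusted p = 0.0572).

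**Figure D4:**
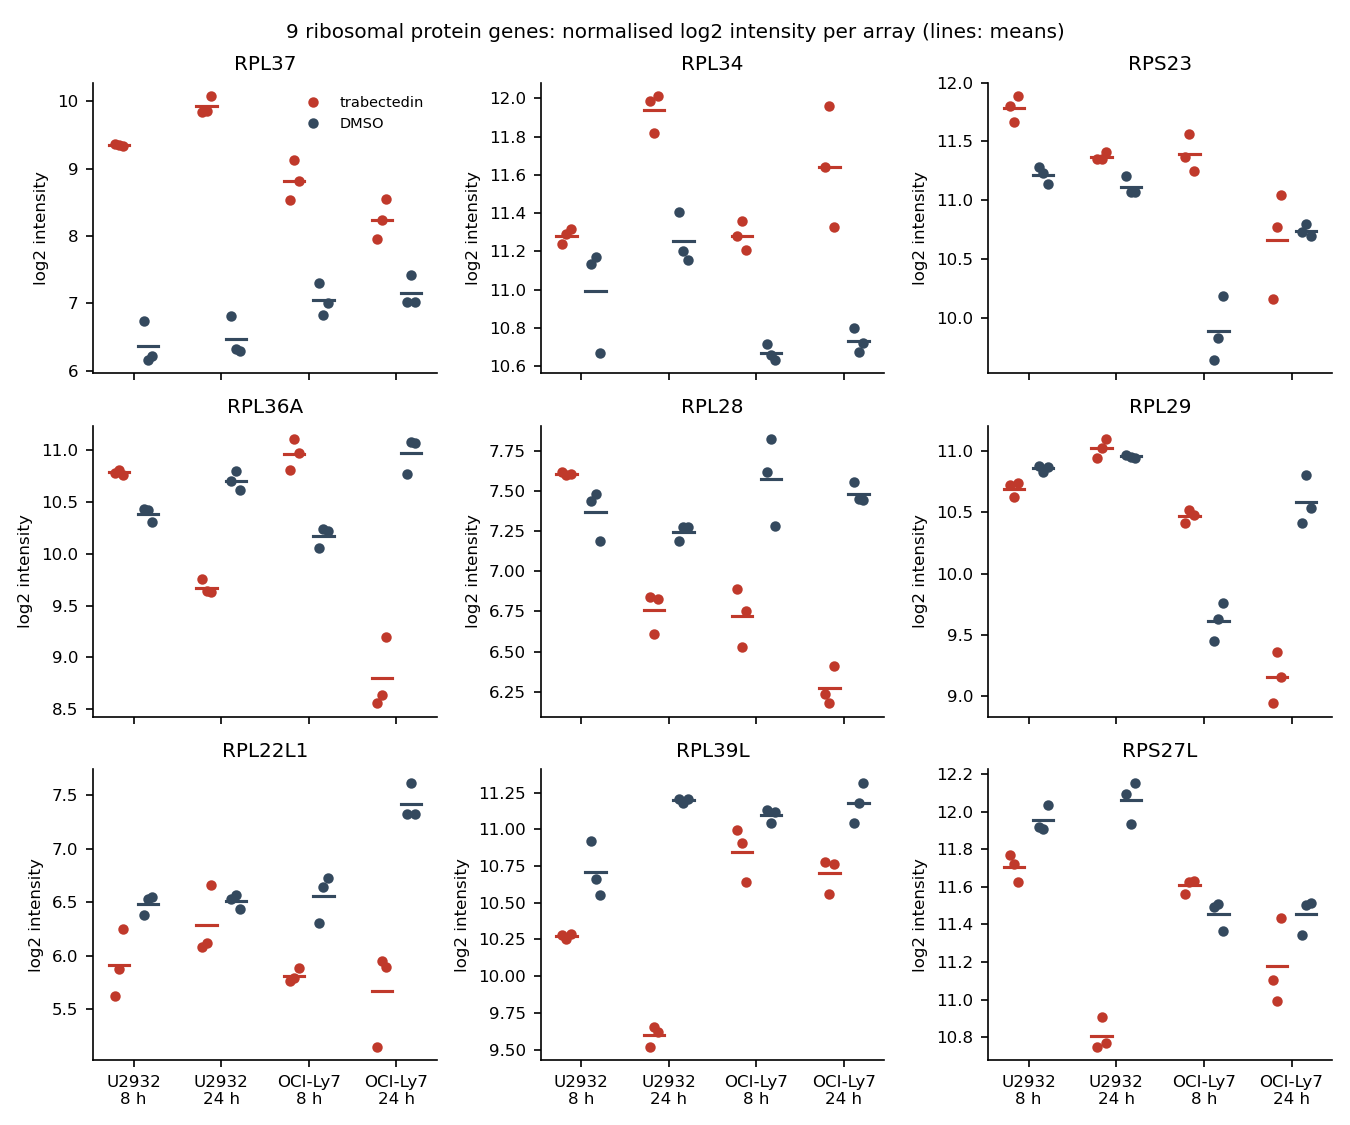
Normalised log2 intensity (vertical axis) of RPL37, RPL34, RPS23, RPL36A, RPL28, RPL29, RPL22L1, RPL39L and RPS27L on every array of the 8 groups, with trabectedin left of DMSO at each time. Points are arrays and lines are group means. RPL37 is near 9 to 10 in the U2932 trabectedin groups and near 6 to 7 in their DMSO groups.

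Other large-subunit members rose by less. RPL36, chosen after its values were seen, read 13.17, 13.35 and 13.21 in OCI-Ly7 after 8 h of trabectedin, against 12.44, 12.38 and 12.55 in DMSO (0.79 ± 0.15, adjusted p = 0.000508), with the groups apart, and -0.08 ± 0.15 at 24 h, which turned to 0.52 (adjusted p = 0.0142) over the mean of its probes and was -0.82 (adjusted p = 0.0252) with no scaling. RPL23A, which sits where the new protein leaves the ribosome, was also chosen after its values were seen. It was called higher in U2932 at 8 h (0.55 ± 0.07, adjusted p = 1.77e-05) and 24 h (0.54 ± 0.07, adjusted p = 1.64e-05). In OCI-Ly7 it was called higher at 8 h (0.55 ± 0.13, adjusted p = 0.00286), with -0.04 ± 0.13 at 24 h. With no scaling its U2932 change at 24 h turned to -0.38, and with equal medians it was 0.02. RPL13A, also known from the GAIT complex that represses inflammatory messages, read 13.91, 13.99 and 13.99 in U2932 after 24 h of trabectedin, against 13.51, 13.24 and 13.38 in DMSO (0.58 ± 0.07, adjusted p = 5.09e-06), with no overlap. It was also called higher in U2932 at 8 h (0.37 ± 0.07, adjusted p = 0.00038), and in OCI-Ly7 it changed by 0.24 ± 0.16 at 8 h (adjusted p = 0.233) and 0.42 ± 0.16 at 24 h (adjusted p = 0.0412). The last call was lost without any 1 of the trabectedin replicates 1 and 2 (0.36 and 0.35, adjusted p = 0.12 and 0.13) and DMSO replicates 1 to 3 (0.41, 0.42 and 0.43, adjusted p = 0.0813, 0.0873 and 0.0661), and was -0.30 with no scaling. RPL9 was called lower in U2932 at 8 h (-0.26 ± 0.10, adjusted p = 0.0282). It was no longer called without U2932 8 h trabectedin replicate 2 (-0.18, adjusted p = 0.124), DMSO replicate 2 (-0.23, adjusted p = 0.0818) or DMSO replicate 3 (-0.23, adjusted p = 0.0892), and read 0.05 with equal medians and 0.29 over the mean of its probes.

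Among small-subunit members, RPS23, which lies at the centre where codons are read, had the largest rise in OCI-Ly7 at 8 h. There it read 11.37, 11.57 and 11.25 after 8 h of trabectedin, against 9.65, 9.84 and 10.19 in DMSO (1.5 ± 0.20, adjusted p = 4.5e-05), and 10.16, 10.77 and 11.04 after 24 h, against 10.73, 10.80 and 10.70 in DMSO (-0.08 ± 0.20, adjusted p = 0.754). The groups were apart at 8 h and overlapped at 24 h, and the 24 h value was -0.68 (adjusted p = 0.0264) with equal medians and -1.18 (adjusted p = 0.00753) with no scaling. In U2932 it read 11.80, 11.66 and 11.89 after 8 h of trabectedin, against 11.29, 11.23 and 11.14 in DMSO (0.57 ± 0.07, adjusted p = 1.3e-05), with 0.25 ± 0.07 at 24 h (adjusted p = 0.006). The 24 h value in U2932 turned to -0.14 with equal medians and -0.53 with no scaling.

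RPS7 and RPS21 were chosen for description after their values were seen. RPS7, a small-subunit protein that also binds MDM2, read 10.97, 10.999 and 10.97 in OCI-Ly7 after 8 h of trabectedin, against 10.09, 10.19 and 10.59 in DMSO (0.69 ± 0.15, adjusted p = 0.00193), and 9.96, 10.37 and 10.25 after 24 h, against 10.85, 11.06 and 10.86 in DMSO (-0.73 ± 0.15, adjusted p = 0.00122). It had the same order of groups in OCI-Ly7 as RPL29, above DMSO at 8 h and below at 24 h. RPS7 was not called in U2932 (0.12 ± 0.06 at 8 h and 0.10 ± 0.06 at 24 h), where no scaling turned the 24 h value to -0.42 and leaving out DMSO replicate 3 brought the 8 h value to 0.17 (adjusted p = 0.0249). RPS21 read 12.32, 12.31 and 12.21 in OCI-Ly7 after 8 h of trabectedin, against 11.82, 11.72 and 11.86 in DMSO (0.48 ± 0.16, adjusted p = 0.0247), and 11.14, 11.53 and 11.70 after 24 h, against 11.99, 12.31 and 12.53 in DMSO (-0.82 ± 0.16, adjusted p = 0.000873). It fell in U2932 at 24 h (-0.33 ± 0.06, adjusted p = 0.000395). The 8 h call in OCI-Ly7 was lost without trabectedin replicate 1 or 2 (0.46 and 0.47, adjusted p = 0.0641 and 0.0651) and without DMSO replicate 1 or 2 (0.49 and 0.44, adjusted p = 0.0567 and 0.0791).

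RPS26, RPS29 and, in OCI-Ly7 alone, RPS9 were small-subunit members with calls that hung on few arrays or probes. RPS9 and RPS26 were chosen after their values were seen. RPS9 was called higher in U2932 at 8 h (0.40 ± 0.06, adjusted p = 4.55e-05) and 24 h (0.39 ± 0.06, adjusted p = 3.86e-05) and in OCI-Ly7 at 24 h (0.40 ± 0.14, adjusted p = 0.0301). The last was lost without trabectedin replicate 1 or 2 (0.39 and 0.37, adjusted p = 0.066 and 0.0761) or DMSO replicate 2 or 3 (0.33 and 0.32, adjusted p = 0.114 and 0.0992), and was -0.27 with no scaling. The U2932 value of RPS9 at 24 h was 0.17 (adjusted p = 0.11) with no scaling. RPS26, at the exit of the messenger RNA channel, read 11.23, 11.57 and 11.34 in OCI-Ly7 after 24 h of trabectedin, against 11.38, 12.16 and 13.15 in DMSO (-0.85 ± 0.33, adjusted p = 0.0428). Those groups overlapped, and without DMSO replicate 3 the change was -0.39 (adjusted p = 0.208). It was also not called without DMSO replicate 2 (-0.89, adjusted p = 0.0785) or without trabectedin replicate 1, 2 or 3 (-0.78, -0.95 and -0.83, adjusted p = 0.106, 0.0562 and 0.0887). RPS29 was called lower in OCI-Ly7 at 8 h (-0.41 ± 0.13, adjusted p = 0.0141), and was not without trabectedin replicate 3 (-0.33, adjusted p = 0.072) or DMSO replicate 3 (-0.36, adjusted p = 0.0561). The mean of its probes gave 0.21.

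Paralogs with an added L were compared with their main genes, 1 pair at a time. RPL39L, a copy used mostly in testis and in some tumours, read 10.28, 10.25 and 10.29 in U2932 after 8 h of trabectedin, against 10.92, 10.66 and 10.55 in DMSO (-0.44 ± 0.08, adjusted p = 0.000391), and 9.52, 9.65 and 9.62 after 24 h, against 11.21, 11.18 and 11.21 in DMSO (-1.60 ± 0.08, adjusted p = 1.05e-09). Groups were apart at both times. In OCI-Ly7 it changed by -0.25 ± 0.13 at 8 h (adjusted p = 0.132) and -0.48 ± 0.13 at 24 h (adjusted p = 0.00789). RPL39, the main gene, whose protein lines the exit tunnel, was not called in any comparison and ran between -0.06 and 0.10. With equal medians RPL39 was called in U2932 at 24 h, at 0.41 (adjusted p = 0.000523).

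RPS27L, a p53 target, fell in U2932. It read 11.77, 11.72 and 11.63 there after 8 h of trabectedin, against 11.92, 11.91 and 12.04 in DMSO (-0.25 ± 0.08, adjusted p = 0.0106), and 10.75, 10.91 and 10.77 after 24 h, against 12.10, 11.93 and 12.16 in DMSO (-1.25 ± 0.08, adjusted p = 4.96e-09). The groups did not overlap. In OCI-Ly7 its changes of 0.15 ± 0.13 at 8 h (adjusted p = 0.364) and -0.28 ± 0.13 at 24 h (adjusted p = 0.0966) were not called, although without trabectedin replicate 3 the 24 h value was -0.41 (adjusted p = 0.0152), with equal medians -0.84 (adjusted p = 0.00275) and with no scaling -1.34 (adjusted p = 0.00271). RPS27 itself ran between -0.18 and 0.13 and was not called in any comparison, and with equal medians it was called at 24 h in U2932 (0.44, adjusted p = 0.000491) and OCI-Ly7 (0.53, adjusted p = 0.0437).

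RPL22L1, a paralog that Rpl22 represses in mouse, was a dim member, above background on 2 of the 3 trabectedin arrays in U2932 at 8 h and 24 h and in OCI-Ly7 at 24 h. It read 5.77, 5.79 and 5.89 in OCI-Ly7 after 8 h of trabectedin, against 6.30, 6.64 and 6.72 in DMSO (-0.74 ± 0.20, adjusted p = 0.00627), and 5.15, 5.95 and 5.90 after 24 h, against 7.33, 7.62 and 7.32 in DMSO (-1.76 ± 0.20, adjusted p = 7.5e-06). Trabectedin arrays were the low ones at both times. In U2932 it changed by -0.57 ± 0.16 at 8 h (adjusted p = 0.00652) and -0.22 ± 0.16 at 24 h (adjusted p = 0.215), or -0.41 at 24 h without trabectedin replicate 3 (adjusted p = 0.0164), -1.48 with equal medians (adjusted p = 8.13e-08) and -1.88 with no scaling (adjusted p = 7.6e-10). RPL22 read 9.95, 9.87 and 9.999 in U2932 after 24 h of trabectedin, against 10.64, 10.64 and 10.55 in DMSO (-0.67 ± 0.08, adjusted p = 2.77e-06), with no overlap. Its other changes were 0.17 ± 0.08 in U2932 at 8 h (adjusted p = 0.0657; 0.23 and called, adjusted p = 0.0181, without DMSO replicate 3), 0.21 ± 0.15 in OCI-Ly7 at 8 h (adjusted p = 0.256) and -0.37 ± 0.15 at 24 h (adjusted p = 0.0497). The last, with overlapping groups, was lost without trabectedin replicate 2 or 3 (-0.26 and -0.36, adjusted p = 0.191 and 0.0946) and without DMSO replicate 2 or 3 (-0.31 and -0.33, adjusted p = 0.163 and 0.118).

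RPL10L, a copy of RPL10 used mostly in testis, was above background on trabectedin arrays and on no DMSO array. It read 7.78, 7.73 and 7.65 in U2932 after 24 h of trabectedin, against 4.77, 5.06 and 4.81 in DMSO, at least 4.91-fold higher, and 6.08, 6.62 and 7.64 in OCI-Ly7, against 4.64, 4.64 and 4.78 in DMSO, at least 2.26-fold higher. Such a bound sets the mean of the bright group against the lowest signal counted as above background. In U2932 at 8 h it read 6.07, 5.97 and 5.83 after trabectedin, against 5.28, 5.12 and 4.98 in DMSO, at least 1.42-fold higher, and in OCI-Ly7 at 8 h neither group was above background. RPL10L entered the tested genes only through the trabectedin groups where it was high, so its calls are in the counts above but support nothing. These levels were among the dimmest of all members, and RPL10 has no value on these arrays to set beside them.

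RPL7L1, a factor of early large-subunit assembly, read 13.24, 13.28 and 13.36 in OCI-Ly7 after 24 h of trabectedin, against 12.59, 12.38 and 12.25 in DMSO (0.88 ± 0.12, adjusted p = 3.73e-05), with the groups well apart. It was not called elsewhere on this brightest probe (-0.02 and 0.09 in U2932, -0.24 in OCI-Ly7 at 8 h). In U2932 at 24 h its dimmer probe was called lower (-0.63), and the mean of its probes was -0.27 (adjusted p = 0.00164). The OCI-Ly7 rise at 24 h was 0.32 (adjusted p = 0.0694) over the mean of its probes and 0.21 (adjusted p = 0.588) with no scaling. RPL7 was called higher in U2932 at 8 h (0.46 ± 0.15, adjusted p = 0.0113, overlapping, and 0.32 with adjusted p = 0.0602 without DMSO replicate 2) and 24 h (0.59 ± 0.15, adjusted p = 0.00204). Both were smaller with equal medians, 0.30 (adjusted p = 0.0866) and 0.12 (adjusted p = 0.481), and with no scaling the 24 h value was -0.28. RPL26L1 fell at 24 h in OCI-Ly7, where it read 9.53, 9.62 and 9.56 after trabectedin, against 10.22, 10.58 and 10.65 in DMSO (-0.92 ± 0.14, adjusted p = 9.89e-05), and in U2932 (-0.30 ± 0.07, adjusted p = 0.00132). RPL26, which binds the p53 message, fell in U2932 at 24 h (-0.28 ± 0.07, adjusted p = 0.00198; -0.06 with equal medians) and was 0.03 ± 0.11 in OCI-Ly7 at 24 h.

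RPL36AL, a near copy of RPL36A, stayed close to no change where RPL36A moved by up to -2.17. It changed by 0.03, 0.15, -0.15 and 0.13 in U2932 at 8 h and 24 h and OCI-Ly7 at 8 h and 24 h. The U2932 value at 24 h was called (adjusted p = 0.0407) and lost its call without any 1 of trabectedin replicates 1 to 3 (0.15, 0.14 and 0.17, adjusted p = 0.0788, 0.101 and 0.0516) and DMSO replicates 2 and 3 (0.12 and 0.15, adjusted p = 0.134 and 0.077), and was -0.17 with no scaling. RPS4X, the X-linked form of that small-subunit protein, was called lower in U2932 at 24 h (-0.19 ± 0.07, adjusted p = 0.0197) and higher in OCI-Ly7 at 8 h (0.45 ± 0.14, adjusted p = 0.0142). The first was lost without trabectedin replicate 1 (-0.17, adjusted p = 0.0576), DMSO replicate 1 (-0.15, adjusted p = 0.083) or DMSO replicate 3 (-0.18, adjusted p = 0.0542), and the second without trabectedin replicate 3 (0.37, adjusted p = 0.0685). Whether a probe also binds a near copy or a processed pseudogene was not checked here.

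Of the members described next, only RPS3 was called on its brightest probe with the settings used for all values. Other members with a role outside the ribosome were called and are given above, among them RPL13A, RPL26 and RPS7. RPL5 and RPL11, which bind MDM2 together with 5S ribosomal RNA, ran between -0.16 and 0.28 and between -0.10 and 0.14 over the 4 comparisons, with no call. RPL5 in OCI-Ly7 read 13.20, 13.15 and 13.26 after 24 h of trabectedin, against 12.91, 12.97 and 12.89 in DMSO (0.28 ± 0.11, adjusted p = 0.0505), apart from each other but not called. RPL23, another MDM2 binder, ran between -0.22 and 0.15, and was called in U2932 at 8 h without DMSO replicate 1 (0.30, adjusted p = 0.0252). At 24 h it was called lower in U2932 with equal medians (-0.35, adjusted p = 0.0166), with no scaling (-0.74, adjusted p = 2.31e-05) and with the spread from the compared arrays only (-0.22, adjusted p = 0.00755), and in OCI-Ly7 with no scaling (-0.97, adjusted p = 0.0141). RPS6, the substrate of the S6 kinases, read 13.93, 13.79 and 13.88 in U2932 after 24 h of trabectedin, against 14.03, 13.96 and 14.03 in DMSO (-0.14 ± 0.07, adjusted p = 0.0687), and was called there without trabectedin replicate 1 (-0.17, adjusted p = 0.0484). RPS19, mutated in Diamond-Blackfan anaemia, ran between -0.20 and 0.15, and RPS14, lost in the 5q- syndrome, between -0.08 and 0.06. RPS15 ran between -0.04 and 0.05, and the acidic stalk proteins RPLP1 and RPLP2 between -0.11 and 0.14 and between -0.11 and 0.06. A dimmer RPS15 probe changed by 0.24, -0.08, 0.78 and -1.42, with all but the second called, and a dimmer RPLP1 probe by 0.64, 1.61, 0.16 and 0.21, called higher at both times in U2932. With equal medians RPL11, RPS14, RPS15, RPS6 and RPLP1 were called higher in U2932 at 24 h, at 0.19, 0.29, 0.32, 0.24 and 0.29. So were RPS19 (0.38, adjusted p = 0.00175) and RPLP2 (0.37, adjusted p = 0.0021), which were also called higher in OCI-Ly7 at 24 h (0.59 and 0.56, adjusted p = 0.0144 and 0.0261). RPS3, also a DNA repair protein, was called higher in U2932 at 8 h (0.21 ± 0.07, adjusted p = 0.0188), and lost its call without trabectedin replicate 2 or 3 (0.18 and 0.20, adjusted p = 0.0713 and 0.0503) or DMSO replicate 1 (0.15, adjusted p = 0.0774). RPL3, which lies at the peptidyl transferase centre, was not called with the settings used for all values (0.23, -0.21, 0.05 and -0.25), and its U2932 calls depended on them. At 8 h it was called higher with equal medians (0.34, adjusted p = 0.00205), over the mean of its probes (0.17, adjusted p = 0.0166) and without trabectedin replicate 1 (0.36, adjusted p = 0.000773). At 24 h it was called lower with no scaling (-0.39, adjusted p = 0.0019), over the mean of its probes (-0.15, adjusted p = 0.0277) and with the spread from the compared arrays only (-0.21, adjusted p = 0.0103). No background correction and an offset of 50 also brought both U2932 values past the threshold.

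Probes of 1 gene did not always move alike. Of the members, 35 had several tested probes, and the largest gap between probes had a median of 0.22, 0.22, 0.48 and 0.30 log2 units in U2932 at 8 h and 24 h and OCI-Ly7 at 8 h and 24 h. The gap passed 1 log2 unit in 5, 9, 6 and 8 members, and probes of 1 member were called in opposite directions in 1, 1, 1 and 2. The dimmest RPS29 probe rose by 2.29, 2.74, 1.42 and 2.4, while its other probes ran between -0.41 and 0.22. A second RPL37 probe, dimmer than the first, was above background on all 12 trabectedin arrays and on 2 of the 12 DMSO arrays, so that its changes have no measured size. A second RPL34 probe, dimmer than the one used, changed by 0.00, -1.29, -0.17 and -1.55, against the rises given above for the brighter one. Over all 123 tested probes of members, 38 and 8, 42 and 16, 34 and 4, and 15 and 26 were called higher and lower. The share called over all 13518 tested probes was not counted, so these probe counts are read no further. The probe sequences were not used here, so which transcripts each probe reads was not checked.

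**Figure D5:**
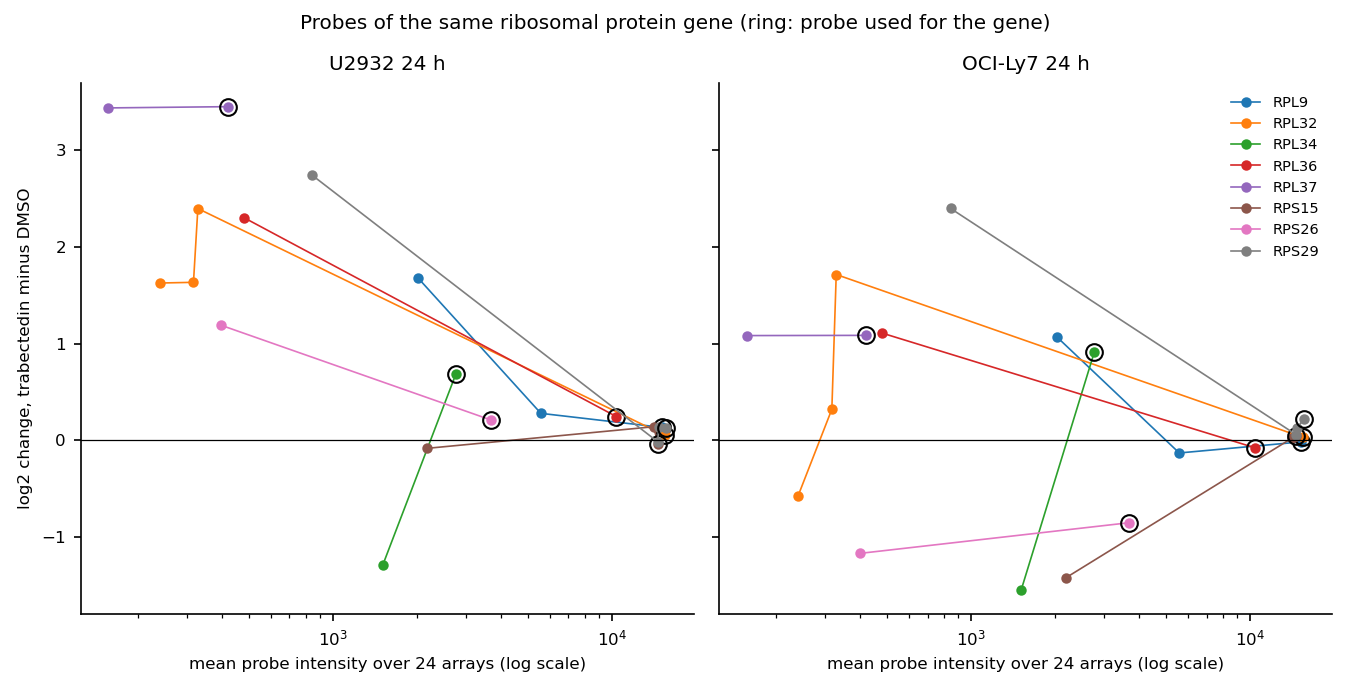
Log2 change after trabectedin against DMSO (vertical axis) against the mean intensity of the probe (horizontal axis, log scale) for the probes of RPL9, RPL32, RPL34, RPL36, RPL37, RPS15, RPS26 and RPS29, in U2932 at 24 h and OCI-Ly7 at 24 h. Rings mark the probe used for the gene. The bright probes lie near 0, and the dimmest RPS29 probe is at 2.74 in U2932 and 2.4 in OCI-Ly7.

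Among called members, the change of the effect with time, 24 h minus 8 h, was lower more often than higher, while 54 members in U2932 and 60 in OCI-Ly7 were not called and the medians over all members were 0.02 and -0.10. In U2932 it was called higher in 6 and lower in 16 members (7.89% and 21.1%), beside 23.9% and 32.7% of all genes (2 higher without U2932 trabectedin 8 h replicate 2 or 24 h replicate 3, and 3 without DMSO 8 h replicate 2 or 3 or 24 h replicate 2), and in OCI-Ly7 in 4 and 12 (5.26% and 15.8%), beside 16.9% and 14.3% of all genes. RPL36A had the lowest difference in both lines, -1.43 ± 0.10 in U2932 and -2.97 ± 0.24 in OCI-Ly7. RPL39L followed in U2932 (-1.16 ± 0.12) and RPL29 in OCI-Ly7 (-2.29 ± 0.21). RPL9 in U2932 (0.39 ± 0.14) and RPL7L1 in OCI-Ly7 (1.12 ± 0.17) had the highest among called members, leaving out RPL10L, which was not above background in DMSO.

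Part of the OCI-Ly7 difference lay in the DMSO arrays themselves. Between 24 h and 8 h in DMSO, 7 members were higher (9.21%), beside 4.55% of all genes, and limma called 0 lower, beside 6.15% (9 higher and 1 lower at an unadjusted p under 0.05). These included RPL29 (0.97 ± 0.15, adjusted p = 0.00752), RPL22L1 (0.87 ± 0.20, adjusted p = 0.0207), RPS23 (0.85 ± 0.20, adjusted p = 0.0233), RPL36A (0.80 ± 0.17, adjusted p = 0.0168) and RPS7 (0.63 ± 0.15, adjusted p = 0.024). In U2932 DMSO, 3 members were higher at 24 h (3.95%), beside 7.37% of all genes, and limma called 0 lower, beside 8.56% (7 higher and 2 lower at an unadjusted p under 0.05). They were RPL39L (0.49 ± 0.08), RPL36A (0.32 ± 0.07) and RPS21 (0.23 ± 0.06). The OCI-Ly7 count rested on single arrays: 0 members were called higher without 8 h DMSO replicate 1 or without 24 h DMSO replicate 2, 1 without 8 h replicate 2 or 24 h replicate 3, and up to 9 without another array.

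The lines differed in the response of some members. At 8 h the effect in OCI-Ly7 minus that in U2932 was called higher in 8 and lower in 4 members (10.5% and 5.26%), beside 22.7% and 15.2% of all genes. The 8 fell to 4 without U2932 8 h trabectedin replicate 2 or 3 or OCI-Ly7 8 h trabectedin replicate 3, and to 5 without U2932 8 h DMSO replicate 1 or 3, OCI-Ly7 8 h DMSO replicate 3 or OCI-Ly7 8 h trabectedin replicate 2. RPL29 (1.02 ± 0.16, adjusted p = 3.45e-05) and RPS23 (0.94 ± 0.23, adjusted p = 0.00237) were at the high end, and RPL37 (-1.20 ± 0.26, adjusted p = 0.00118) and RPL28 (-1.09 ± 0.18, adjusted p = 5.2e-05) at the low end. At 24 h it was called higher in 4 and lower in 16 (5.26% and 21.1%), beside 38.4% and 25.5% of all genes. RPL39L (1.12 ± 0.15, adjusted p = 1.6e-06) and RPS27L (0.98 ± 0.15, adjusted p = 7.31e-06), which fell in U2932, were then at the high end, and RPL37 (-2.36 ± 0.26, adjusted p = 7.83e-08) and RPL22L1 (-1.53 ± 0.27, adjusted p = 3e-05) at the low end. Line and slide cannot be told apart in these differences.

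In DMSO, members were higher in OCI-Ly7 than in U2932 in 30 and lower in 13 cases (39.5% and 17.1%), beside 32.4% and 35.2% of all genes, with a median of 0.12 for members and -0.02 for all genes. With equal medians the count was 2 higher and 62 lower, against a median of all genes of -0.72. With no scaling it was 2 higher and 66 lower, against -0.82. Of all genes, 81.7% were called with equal medians and 78.6% with no scaling. RPS7 stood at -1.53 ± 0.08 in OCI-Ly7 relative to U2932 (adjusted p = 7.95e-14) and RPS23 at -0.85 ± 0.11 (adjusted p = 5.26e-07).

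Sequence and gene structure, which the rule did not use, split the members little. Of the 44 members with the C and pyrimidine start, 15, 16, 11 and 10 were called in U2932 at 8 h and 24 h and OCI-Ly7 at 8 h and 24 h, and of the 21 without it 4, 7, 4 and 7. Their median changes were 0.03, 0.06, 0.01 and 0.03 with the start and 0.02, 0.05, 0.05 and -0.02 without. Members are short genes, with a median span of 5136 bp (772 to 27723) in RefSeq, beside 26148 bp over 10178 tested genes. Over all tested genes the log2 change had a Spearman correlation with span of -0.578, -0.577, -0.521 and -0.452 in the 4 comparisons, a description across genes that share arrays. Over members alone it was 0.068, -0.083, -0.127 and 0.047. Other genes no longer than the longest member, 5196 in number, had median changes of 0.33, 0.45, 0.26 and 0.24, above those of members, and 73.7%, 83%, 49.7% and 51.5% of them were called. The 24 members that hold small nucleolar RNA genes in their span, 51 of them, had medians of 0.11, 0.04, 0.07 and 0.02, against 0.03, 0.07, 0.04 and 0.00 for those that hold none.

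Related genes were read in the same way, with quantile normalisation alone. Of 13 tested translation factors and other messages with a TOP start, 2 rose and 5 fell in U2932 at 8 h, 2 and 9 at 24 h, 2 and 3 in OCI-Ly7 at 8 h and 0 and 4 at 24 h. HNRNPA1, an RNA-binding protein, fell in all 4 (-0.59, -1.78, -1.04 and -2.04). Of 8 tested small nucleolar RNA host genes with a TOP start, 5 and 1, 8 and 0, 4 and 0, and 2 and 1 rose and fell, with GAS5 at 2.03, 1.95, 0.49 and 0.06. Of 6 tested chaperones of single ribosomal proteins, 3 and 3, 3 and 3, 3 and 1, and 2 and 1 rose and fell. TSR2, which escorts RPS26, rose in all 4 (0.34, 1.15, 0.64 and 1.36), and HEATR3, which helps import RPL5, fell in all 4 (-1.25, -2.06, -0.96 and -1.58).

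Mitochondrial ribosomal protein genes, whose proteins form the separate ribosome of mitochondria, were called in 67.9%, 83.3%, 59% and 55.1% of 78 tested, 23 and 30, 29 and 36, 31 and 15, and 13 and 30 in the higher and lower direction, with medians of -0.01, -0.08, 0.21 and -0.20. MRPL44 rose in all 4 (1.64, 2.92, 0.82 and 0.85) and MRPL1 fell in all 4 (-1.28, -3.50, -1.02 and -1.76). Of 12 tested p53 targets, listed because free ribosomal proteins bind MDM2, 7 and 2, 7 and 3, 4 and 3, and 4 and 4 rose and fell. CDKN1A, the p21 inhibitor of the cell cycle, changed by 1.41 and 1.60 in U2932 and by -0.57 and 1.32 in OCI-Ly7, and AEN, a nuclease induced by p53, rose in all 4 (1.59, 2.55, 0.84 and 0.99). These lists are read only by their counts beside the shares of all genes given above.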

How the data were processed

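Total RNA of 2 lymphoma lines was amplified, labelled and hybridised to Illumina bead arrays, per the labels' protocols. The authors deposited probe intensities, not background-corrected as far as the values show, and, per sample, log2 values within 4.99e-09 of what quantile normalisation of those intensities gives. The intensities were used here. Genes were named through the platform's annotation table: 30113 of 47231 probes have 1 symbol, 8 have several and 17110 have none.

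Background was corrected with limma's normexp (R 4.3.3, limma 3.58.1, offset 16) on 656 probes of gene families silent in lymphocytes, which stood in for negative controls. A probe was above background on an array where under 0.01 of these probes were as bright. Probes above background on at least 3 arrays were kept (13518 probes, 10187 genes). Values were set to log2, quantile-normalised over 24 arrays, and each gene was read from its brightest probe. Plots were drawn in Python 3.11.15 with matplotlib 3.10.9.

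limma's lmFit and eBayes were fitted with 1 mean per group, and p-values were adjusted by Benjamini-Hochberg over all genes. The 12 arrays of a line gave the spread for comparisons within it, all 24 for comparisons between lines. Replicates correlated at 0.984 or more. In simulated data on 10187 genes with 200 changed, the U2932 8 h comparison recovered 79.6% of 1.5-fold, 97.5% of 2-fold and 100% of 4-fold changes, with 5.62% of calls on unchanged genes. The OCI-Ly7 24 h comparison recovered 29.4%, 82.1% and 100%, with 5.38%. Far more than 200 genes were called in the data, so these shares are not read as those of the data.

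The members and lists were chosen with earlier results of these data known. Members named per trabectedin comparison are the 3 highest and 3 lowest called ones whose groups do not overlap and that are above background on all 3 arrays of a group, for the other contrasts the 2 highest and 2 lowest called, and a fixed set named for its roles. Some others, among them RPL36, RPL23A, RPS7, RPS21, RPS9 and RPS26, were chosen after their values were seen. Companion lists name up to 2 called genes at each end. The alternatives tried were other background, scaling, filter, probe, spread and replicate settings, and the members without the Y-linked ones. Each precision is limited by 3 arrays per group. Sequences and spans are RefSeq's.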

Additional observations from a re-analysis of the deposited data

Results flagged for a closer look

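The effect of trabectedin on some members differed between times or between lines by a test of the difference itself (limma interaction contrast, Benjamini-Hochberg over all genes, log2 units ± SE). In U2932, 24 h minus 8 h, RPL9 had 0.39 ± 0.14 (adjusted p = 0.0281), RPL36A -1.43 ± 0.10 (2.25e-07) and RPL39L -1.16 ± 0.12 (5.4e-06). The fit gave 2.01 for RPL10L, but its DMSO groups were not above background at either time, so that value is no measured size. RPL36A was above DMSO at 8 h and below it at 24 h on every array of both groups.

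In OCI-Ly7 the same difference was 1.12 ± 0.17 for RPL7L1 (adjusted p = 0.00056), -2.97 ± 0.24 for RPL36A (4.65e-05) and -2.29 ± 0.21 for RPL29 (4.92e-05). The fitted 1.63 for RPL10L is no measured size either, since 3 of its 4 groups were not above background. The trabectedin arrays of OCI-Ly7 at 24 h were the ones on slide 3, so slide and time cannot be told apart in these values.

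Between the lines at 8 h, OCI-Ly7 minus U2932, the effect differed by 1.02 ± 0.16 for RPL29 (adjusted p = 3.45e-05), 0.94 ± 0.23 for RPS23 (0.00237), -1.20 ± 0.26 for RPL37 (0.00118) and -1.09 ± 0.18 for RPL28 (5.2e-05). At 24 h it differed by 1.12 ± 0.15 for RPL39L (1.6e-06), 0.98 ± 0.15 for RPS27L (7.31e-06), -2.36 ± 0.26 for RPL37 (7.83e-08) and -1.53 ± 0.27 for RPL22L1 (3e-05). RPL37 differed in the same direction at both times, with the smaller rise in OCI-Ly7.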

How the results depend on the processing

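The scaling between arrays moved the counts most, and the cause was not tested. Shares of all genes called are given for the scalings alone, so member counts with the other settings are read no further. With equal medians, members called higher were 34 in U2932 at 8 h, 46 in U2932 at 24 h, 10 in OCI-Ly7 at 24 h, 2 for the time difference in OCI-Ly7 (20 lower), 0 for OCI-Ly7 DMSO over time and 2 for the lines in DMSO (62 lower), and 0 were lower for the lines at 8 h. With no scaling the counts of higher and lower were 8 and 7 in U2932 at 8 h, 3 and 27 in U2932 at 24 h, 3 and 0 in OCI-Ly7 at 8 h, 1 and 22 in OCI-Ly7 at 24 h, 0 and 22 for the time difference in OCI-Ly7, 1 and 10 for the lines at 24 h and 2 and 66 for the lines in DMSO. There were then 1 higher for the time difference in U2932, 0 higher for DMSO over time in either line and 0 lower for the lines at 8 h. With equal medians, 23% of all genes were called for the time difference in OCI-Ly7 and 0.0294% for OCI-Ly7 DMSO over time. The shares were 49.1% for the lines at 8 h and 81.7% for the lines in DMSO. With no scaling they were 65.6% and 23.5% for the time difference in U2932 and OCI-Ly7 and 6.32% and 0.00982% for DMSO over time. For the lines they were 35.8% at 8 h, 40.5% at 24 h and 78.6% in DMSO.
Without background correction there were 5 lower in OCI-Ly7 at 8 h, 10 higher in OCI-Ly7 at 24 h, 12 higher for the time difference in U2932, 5 higher and 1 lower for U2932 DMSO over time and 1 lower for OCI-Ly7 DMSO over time. An offset of 50 gave 11 for that U2932 time difference, 5 and 1 for U2932 DMSO and 1 lower for OCI-Ly7 DMSO. The mean of probes gave 23 higher in OCI-Ly7 at 8 h, 10 higher at 24 h, 15 higher for the time difference in U2932, 20 lower for that in OCI-Ly7 and 26 lower for the lines at 24 h. The spread of all 24 arrays gave 5 lower in OCI-Ly7 at 8 h, 10 higher at 24 h, 3 higher and 9 lower for the time difference in U2932, 19 lower for that in OCI-Ly7, and 1 higher for U2932 and 1 lower for OCI-Ly7 DMSO over time. In simulated data with 200 genes changed, that setting put 38.9% of OCI-Ly7 24 h calls on unchanged genes. A detection p of 0.05 gave 5 higher for the lines at 8 h, no filter gave 1 lower for OCI-Ly7 DMSO, and the spread of the arrays compared gave 1 lower for U2932 DMSO.
Leaving out 1 array at a time gave 14 to 18 higher and 3 to 6 lower in U2932 at 8 h, 17 to 19 and 9 to 11 at 24 h, 11 to 13 and 2 to 3 in OCI-Ly7 at 8 h, and 4 to 6 and 10 to 13 at 24 h. It gave 2 to 7 and 13 to 16 for the time difference in U2932, 3 to 4 and 10 to 15 in OCI-Ly7, 2 to 3 and 0 to 1 for U2932 DMSO, 0 to 9 and 0 to 1 for OCI-Ly7 DMSO, 4 to 8 and 3 to 5 for the lines at 8 h, 3 to 5 and 13 to 18 at 24 h, and 24 to 30 and 11 to 14 for the lines in DMSO.
Same-numbered samples did not deviate together on average (mean r -0.009 in U2932 and 0.04 in OCI-Ly7, each over 18 pairs). Single pairs ran from -0.137 to 0.11 in U2932 and from -0.379 to 0.339 in OCI-Ly7. Whether the replicate numbers pair samples cannot be told from these means. With the number as a replicate block, 18 and 6, 19 and 10, 14 and 3, and 5 and 12 members were called higher and lower in the 4 trabectedin comparisons. RPL36AL in U2932 at 24 h (adjusted p = 0.0589), RPL22 (0.0676) and RPL13A (0.0553) in OCI-Ly7 at 24 h were then not called.
Some named members turned in direction while called with the usual settings, with the alternative or with both. Turns of members called with neither are not listed. With equal medians these were RPL9 (0.046) and RPL28 (-0.59) in U2932 at 8 h and RPL11 (0.19), RPS14 (0.29), RPS15 (0.32), RPS6 (0.24), RPLP1 (0.29), RPL29 (-0.43) and RPS23 (-0.14) in U2932 at 24 h. With no scaling they were RPL36A (-0.0245), RPL26L1 (-0.30), RPL34 (-0.026) and RPL28 (-0.75) in U2932 at 8 h. At 24 h in U2932 they were RPL34 (-0.017), RPL36AL (-0.17), RPL7 (-0.28), RPL7L1 (-0.31), RPL5 (-0.26), RPL23A (-0.38), RPL29 (-0.82), RPS23 (-0.53), RPS26 (-0.55) and RPS7 (-0.42), and in OCI-Ly7 RPL37 (-0.21), RPL34 (-0.19), RPL7 (-0.93), RPL13A (-0.30) and RPS9 (-0.27). Over the mean of probes they were RPL9 (0.29) and RPLP1 (0.19) in U2932 at 8 h, RPL34 (-0.30), RPL7L1 (-0.27) and RPLP1 (0.57) in U2932 at 24 h, RPS29 (0.21), RPS15 (0.33) and RPL9 (0.29) in OCI-Ly7 at 8 h, and RPL34 (-0.32), RPS15 (-0.45), RPL36 (0.52) and RPL9 (0.31) in OCI-Ly7 at 24 h.
Over all alternatives, 363 of 434 recomputed counts stayed within 1.5 times. Of 2668 values of named members 2439 kept their call, and kept their direction where called. A turn in direction was not counted where neither fit called the member. Leaving out the 2 Y-linked members and reading each probe on its own were chosen after seeing the data. Precision is limited by 3 arrays per group. In simulated data with 200 genes changed, the OCI-Ly7 24 h comparison recovered 29.4% of 1.5-fold changes. In the data 53.8% of all genes were called there, so what share of such changes was missed among members was not tested. Dim members such as RPL10L and RPL22L1 have only bounds or partial detection.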
